A study of Sus scrofa with 16 samples.

Results

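The accessible chromatin around 7 genes that encode hepatic transcription factors was described, namely HNF4A, HNF4G, FOXA1, FOXA2, FOXA3, ONECUT1 and PROX1, out of 19560 protein-coding genes (PCGs) annotated in the pig. The genes were chosen by name, with earlier results of these data known. Every consensus ATAC-seq peak that overlapped a gene body with 10 kb on either side, or a promoter from 2.2 kb upstream to 500 bp downstream of a transcription start site (TSS), was taken, which gave 342 of the 798988 peaks in 8 lists. Peaks of different lists that touched were joined into accessible chromatin regions (ACRs), and the windows of the 7 genes held 108 of them.

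ATAC-seq, in which a transposase cuts open DNA, had been applied to nuclei of frozen whole tissue from female crossbred domestic pigs, with 2 libraries in each of 8 groups. Newborn pigs (day 0) gave liver, kidney, lung, heart, skeletal muscle and spleen, and liver was also taken at day 28 (suckling) and day 180 (adult). The pigs of a stage were full sibs of a Berkshire × Tibetan hybrid, and all 6 newborn tissues came from the same 2 animals. No group carried a treatment or an engineered allele, and a stage of life is represented by 2 animals. In whole tissue, a smaller number of cells of a type cannot be told apart from less open chromatin in each cell.

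These factors bind DNA and together maintain the gene programme of the hepatocyte. HNF4A and its paralog HNF4G are orphan nuclear receptors, and HNF4A is transcribed from alternative promoters that are used differently in liver, gut and kidney. FOXA1, FOXA2 and FOXA3 are forkhead proteins that can open compacted chromatin in endoderm, ONECUT1 (HNF6) is a cut-homeodomain protein of hepatocytes and the biliary tree, and PROX1 is a homeodomain protein of hepatoblasts that is also used in lymphatic endothelium, heart and skeletal muscle.

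The sequences that the results turn on are given in the Sscrofa11.1 assembly of RefSeq, on the strand of the gene and from 5′ to 3′. The alternative promoters of HNF4A are shown as the 200 bases just upstream of each start site, chr17:46783572-46783771 for the upstream promoter (promoter 1) and chr17:46820721-46820920 for the promoter inside the gene (promoter 2), on the plus strand. Promoters are numbered here in the direction of transcription, and not by names used elsewhere. Consensus letters of hepatic factors were searched on both strands. These were TGTTTAC or TATTTAC for FOXA, CAAAGNNCA for HNF4 and TATNGATC for ONECUT, and none matched in either promoter. In the same 200 bases these letters were found in 3.22%, 3.09%, 0.25% and 0.439% of the 45998 annotated promoters. Shorter letters, TATNGAT (the ONECUT core, the first part of the longer letters), were chosen after these sequences had been seen and are marked in capitals in promoter 1, where they appear as the reverse complement.
HNF4A promoter 1: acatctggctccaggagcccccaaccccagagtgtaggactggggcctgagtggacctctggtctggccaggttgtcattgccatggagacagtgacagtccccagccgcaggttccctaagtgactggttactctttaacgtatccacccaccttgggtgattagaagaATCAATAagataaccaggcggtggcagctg
HNF4A promoter 2: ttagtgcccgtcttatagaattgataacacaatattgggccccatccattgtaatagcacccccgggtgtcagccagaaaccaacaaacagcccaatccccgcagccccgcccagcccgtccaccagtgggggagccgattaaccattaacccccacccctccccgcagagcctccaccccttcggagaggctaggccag
The ONECUT core began 30 bases upstream of the first start site and was not found in promoter 2. Of all annotated promoters, 2.46% held it in their last 200 bases. A match of letters is a description and not a measured binding site.

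For 5 of the other genes the strongest adult liver peak outside exons, in a region called in no other tissue, is shown. The 300 bases around its summit are given, since only liver lists called these regions. The region of FOXA1 was called in adult liver alone and the others at all 3 liver ages. They lie at chr4:60622556-60622855 (HNF4G, minus strand), chr7:62480003-62480302 (FOXA1, plus strand), chr6:52192215-52192514 (FOXA3, plus strand), chr1:118905570-118905869 (ONECUT1, plus strand) and chr9:129546484-129546783 (PROX1, minus strand). Capitals mark CAAAGNNCA of HNF4 or TGTTTAC of FOXA, each present as its reverse complement.
HNF4G intron: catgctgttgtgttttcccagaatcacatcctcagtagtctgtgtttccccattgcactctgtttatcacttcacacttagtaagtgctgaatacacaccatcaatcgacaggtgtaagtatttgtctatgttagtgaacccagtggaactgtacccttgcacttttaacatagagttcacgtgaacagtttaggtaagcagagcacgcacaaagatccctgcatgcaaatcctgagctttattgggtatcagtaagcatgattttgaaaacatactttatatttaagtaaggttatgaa
FOXA1 downstream: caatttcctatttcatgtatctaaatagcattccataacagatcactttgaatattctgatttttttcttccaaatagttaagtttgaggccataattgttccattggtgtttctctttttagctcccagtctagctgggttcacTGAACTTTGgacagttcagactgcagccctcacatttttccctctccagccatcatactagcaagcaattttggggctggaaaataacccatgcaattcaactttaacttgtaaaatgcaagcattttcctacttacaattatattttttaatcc
FOXA3 downstream: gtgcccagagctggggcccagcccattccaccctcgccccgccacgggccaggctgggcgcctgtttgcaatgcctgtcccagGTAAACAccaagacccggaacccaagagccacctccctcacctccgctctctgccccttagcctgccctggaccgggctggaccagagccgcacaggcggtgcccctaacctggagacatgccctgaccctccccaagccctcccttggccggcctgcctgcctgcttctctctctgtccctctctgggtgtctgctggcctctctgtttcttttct
ONECUT1 upstream: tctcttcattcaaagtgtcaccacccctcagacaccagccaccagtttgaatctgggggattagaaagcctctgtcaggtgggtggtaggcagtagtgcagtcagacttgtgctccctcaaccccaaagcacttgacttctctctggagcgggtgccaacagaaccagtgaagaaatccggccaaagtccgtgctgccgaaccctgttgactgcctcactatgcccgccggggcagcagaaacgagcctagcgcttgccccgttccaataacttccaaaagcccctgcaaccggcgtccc
PROX1 intron: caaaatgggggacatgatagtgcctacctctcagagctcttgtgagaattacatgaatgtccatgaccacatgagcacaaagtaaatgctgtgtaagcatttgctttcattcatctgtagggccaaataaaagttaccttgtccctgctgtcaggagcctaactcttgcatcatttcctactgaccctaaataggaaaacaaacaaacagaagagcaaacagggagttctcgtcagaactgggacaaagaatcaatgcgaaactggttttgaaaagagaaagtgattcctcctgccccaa
The FOXA3 interval held GTAAACA at bases 84 to 90 and the FOXA1 interval held TGAACTTTG at bases 146 to 154, while the letters were not found in the HNF4G, ONECUT1 and PROX1 intervals. Of the 84 adult liver peaks of the 7 genes, 11 (13.1%) held the FOXA letters in the 300 bases around the summit, against 11.7% of all adult liver peaks. The HNF4 letters were in 4 (4.76%), against 12.0% of all. The HNF1 letters were in 2 (2.38%, against 1.1%) and the ONECUT letters in 3 (3.57%, against 1.35%).

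The lists held between 57126 and 141689 peaks, and from 19.2% to 50.4% of them had an irreproducible discovery rate (IDR, a measure of how well the rank of a peak matches between the replicates) of 0.05 or lower. Each peak carries the −log10 p of both replicates. The replicates differed most in their medians in newborn liver (24.8 and 8.66) and newborn lung (6.15 and 22.5), so values are compared within a list only, as the percentile of a peak among all peaks of that list in the same replicate. Read depth is not recorded in the lists, and a peak missing from a list was not called rather than measured as absent. Of 5 liver markers, 4, 5 and 5 had a promoter peak in newborn, suckling and adult liver and 1 in each other tissue, and ALB lacked a promoter peak in newborn liver. Promoter peaks at 5 erythroid markers numbered 4, 2 and 1 in the 3 livers and 5 in spleen, and their part in the results below was not tested.

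Peaks around the 7 genes were listed more often in liver than in the other tissues, and which genes were set apart differed. The windows held 67, 79 and 84 peaks in newborn, suckling and adult liver, 42 in kidney, 24 in lung, 20 in heart, 14 in spleen and 12 in skeletal muscle. Per 100000 peaks of a list these were 55.8, 55.8 and 77.1 in the livers, 31.5 in kidney, 29.8 in lung, 27.4 in heart, 21 in muscle and 16.6 in spleen. For 3 of the 7 genes, HNF4A, FOXA3 and ONECUT1, the share in every liver list was above that in every other list, as it was for 7.1% of the 18555 PCGs with any peak. For none of them was it lower in every liver list, as it was for 4.15% of PCGs. The median difference between the liver mean and the mean of the other lists was 4.58 peaks per 100000 over the 7 genes and −0.15 over all PCGs tested. Neither these differences nor the shares above allow for the length of the window, which was from 24.3 kb (FOXA2) to 156 kb (HNF4G).

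**Figure D1:**
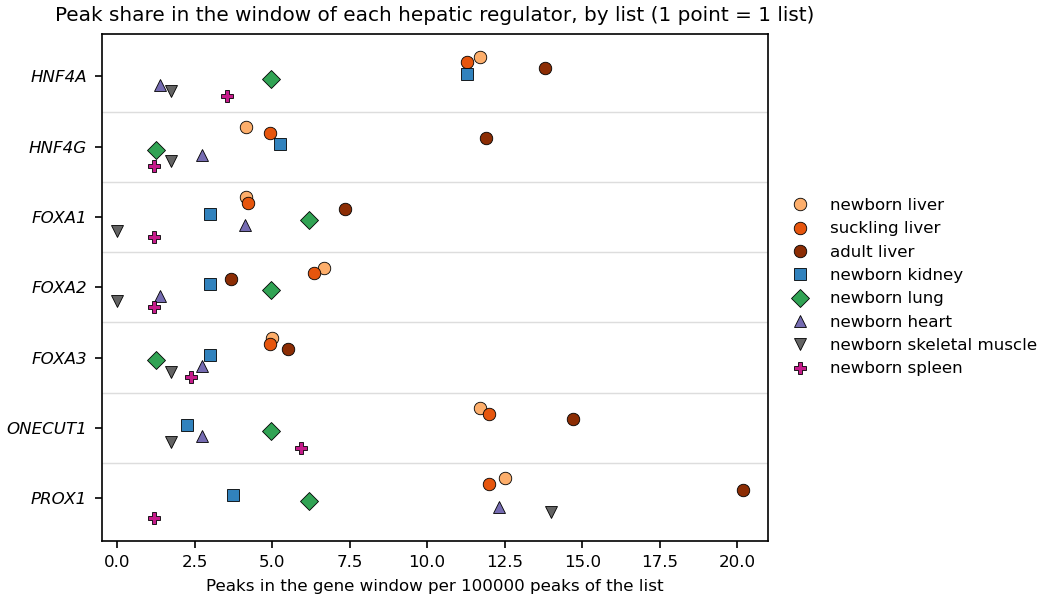
Peaks in the window of each gene per 100000 peaks of the list (x axis), 1 point for each of the 8 lists, with livers as circles. The livers of ONECUT1 lie from 11.7 to 14.7 with the other tissues at 5.93 or lower, whereas the kidney point of HNF4A lies beside the suckling liver point at 11.3.

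ONECUT1 had the widest gap, with 11.7, 12.0 and 14.7 peaks per 100000 in newborn, suckling and adult liver, then 5.93 in spleen, 4.96 in lung, 2.74 in heart, 2.25 in kidney and 1.75 in muscle. The livers of FOXA3 lay between 4.94 and 5.50 and the other tissues between 1.24 and 3. HNF4A was highest in adult liver (13.8), and kidney (11.3, 15 peaks) was below suckling liver (11.3, 16 peaks) by only 0.0356. An exact two-sided permutation test over the 3 liver and 5 other lists gave p = 0.0357 for these 3 genes, the smallest p that this design allows, and an adjusted p of 0.318 over all PCGs (Benjamini-Hochberg). Every gene with a higher share in all liver lists reaches this smallest p, so it is no further support for these 3 genes. No PCG had an adjusted p under 0.05 by this exact test, and 2087 had an unadjusted p under 0.05. The 6 newborn lists share their animals, so lists are not fully independent in this test. Suckling and adult liver have no other tissue of their age, so the test cannot fully separate tissue from age. All 5 other lists are of newborn tissues. For HNF4A, FOXA3 and ONECUT1 the share in newborn liver was therefore above that in every other newborn tissue by definition.

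The other 4 genes overlapped other tissues. PROX1 was highest in adult liver (20.2), but skeletal muscle (14.0) and heart (12.3) lay above suckling liver (12.0). FOXA1 in lung (6.20) lay above newborn (4.17) and suckling liver (4.23). FOXA2 in lung (4.96) lay above adult liver (3.67), with 4 peaks in each list. HNF4G in kidney (5.25) lay above newborn (4.17) and suckling liver (4.94). Their differences between the liver mean and the mean of the other lists were 7.40 for PROX1, 4.58 for HNF4G, 3.46 for FOXA2 and 2.35 for FOXA1, with exact permutation p from 0.0714 to 0.179 and adjusted p from 0.408 to 0.538. With equal numbers of peaks in each list HNF4A was no longer set apart, while HNF4G, FOXA1 and FOXA2 were.

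Promoters were called widely, and the tissue pattern of the 7 genes lay mostly outside them. Promoter peaks were found at 6 of the 7 genes in newborn liver, 6 in suckling liver and 7 in adult liver, where 73.5%, 74.8% and 69.7% of all PCGs had one. In kidney all 7 had a promoter peak (75.1% of all PCGs), in lung, heart and spleen 5 (70.4%, 67.9% and 68.8%), and in skeletal muscle 3 (61.4%). FOXA3, ONECUT1 and PROX1 had a promoter peak in all 8 lists, as did 56.7% of PCGs, and FOXA1 and FOXA2 in all but muscle. HNF4A and HNF4G were the genes of the 7 with promoter peaks in no tissue beyond liver and kidney. None of the 7 had promoter peaks in the 3 livers and in no other list, a pattern of 0.895% of PCGs.

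**Figure D2:**
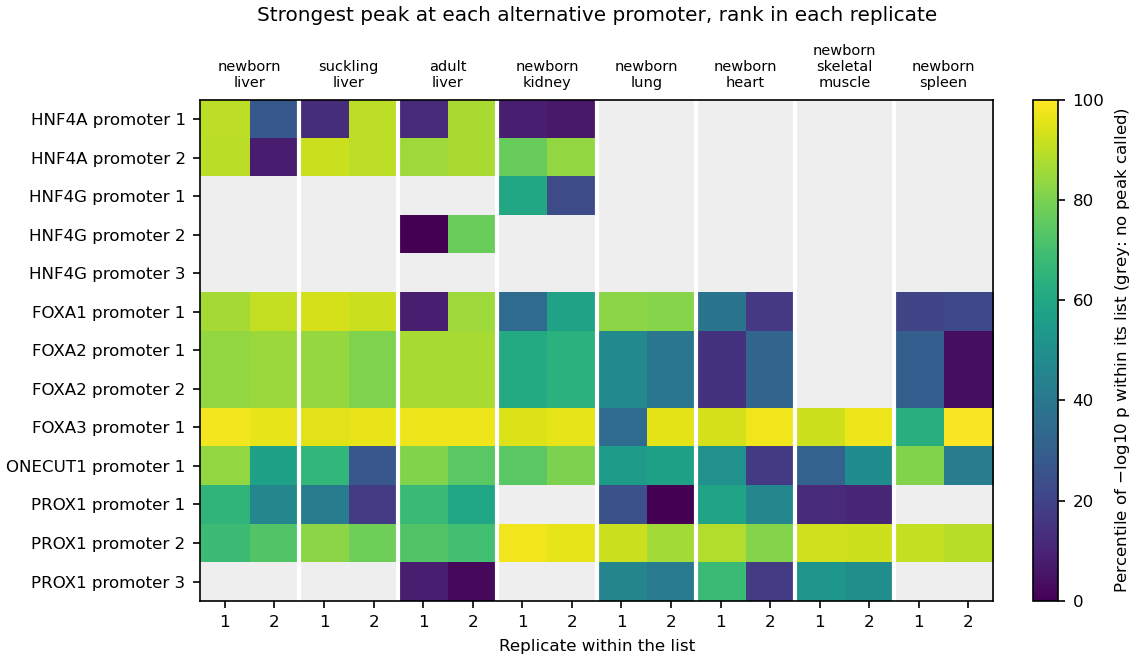
Percentile of −log10 p of the strongest peak at each of 13 alternative promoters (rows) in the 2 replicates of each list (columns), with grey where no peak was called. HNF4A is grey outside liver and kidney, PROX1 promoter 2 is coloured in all lists, and HNF4A promoter 1 pairs a high with a low replicate in all 3 livers.

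HNF4A has 2 promoters that lie 37149 bp apart on chromosome 17, and both were called in the 3 livers and in kidney and in no other list. Only 0.91% of PCGs had a promoter peak in exactly these 4 lists. At promoter 2, inside the gene, −log10 p in replicates 1 and 2 was 185 and 4.28 in newborn liver, 35.7 and 48.8 in suckling liver, 122 and 132 in adult liver and 15.4 and 29.2 in kidney. These peaks ranked from the 76.6th to the 92.0th percentile of their lists in all replicates but newborn liver replicate 2, which was at the 8.20th. The IDR was 9.55e-04, 8.71e-04 and 0.00479 in suckling liver, adult liver and kidney, and 0.407 in newborn liver.

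Promoter 1 of HNF4A was less even. Replicates 1 and 2 had values of 192 and 5.87 in newborn liver, 4.43 and 49.1 in suckling liver, 5.52 and 132 in adult liver and 4.14 and 4.32 in kidney. In each liver a single replicate ranked between the 87.3rd and the 90.2nd percentile and the other at the 27.6th or lower, and in kidney both were at the 8.22nd or lower. The IDR ranged from 0.380 to 0.631, so no list called this promoter at an IDR of 0.05 or lower. The high rank of promoter 1 thus came from 1 replicate of each liver.

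Between and behind the promoters, HNF4A shared its accessible regions with kidney more than with any other tissue. Its window on chr17:46773772-46857505 held 22 ACRs, of which 18 were called in liver, 12 of these also in kidney (66.7%), 3 in lung, 2 in spleen, and 1 each in heart and muscle. Over the windows of all PCGs 43.3% of liver regions were also called in kidney. Regions called in liver and kidney alone numbered 8 of 22 in the HNF4A window, and 6.58% of the regions of all windows had this pattern. All 3 liver ages called 11 of the regions. An intron region upstream of promoter 2 (summit at −7506 bp, chr17:46813139-46813735) had replicate values of 150 and 37.4 in newborn, 39.6 and 41.4 in suckling and 165 and 142 in adult liver, and 19.3 and 41.9 in kidney, each at the 82.7th percentile or above. A further intron region upstream of promoter 2 (summit at −13014 bp) was the only one in this window called in all 8 lists, including spleen (153 and 222).

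**Figure D3:**
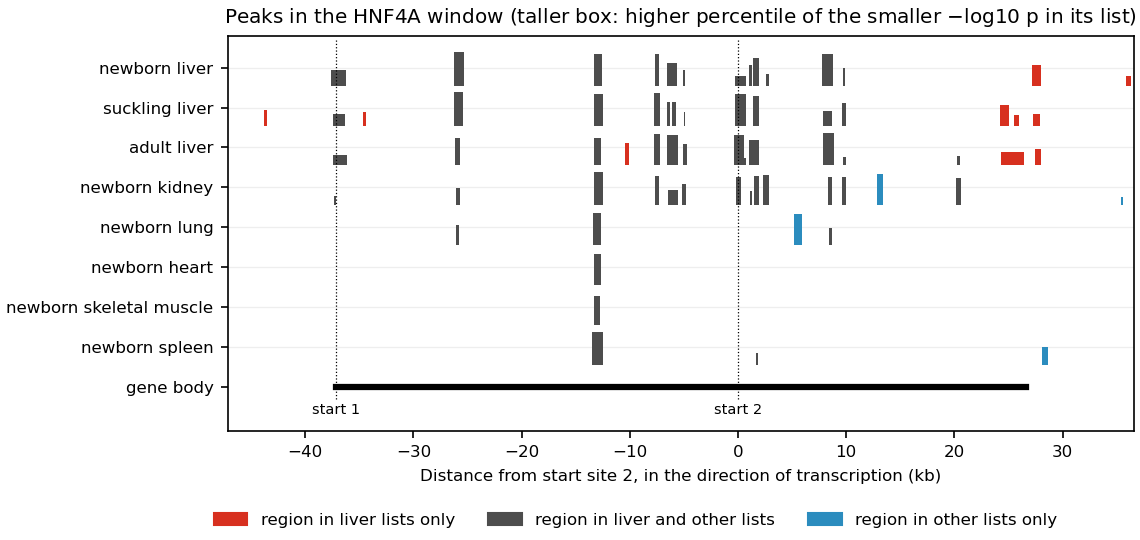
Peaks in the HNF4A window by distance from start site 2 in kb, with 1 row for each list and taller boxes for a higher percentile. Kidney repeats most grey boxes of the livers on either side of start site 2, and heart and muscle share only the box of the region called in all 8 lists.

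The kidney markers give the setting of this overlap. Of 5 kidney markers found in the annotation, 4 had a promoter peak in kidney, 1 in newborn and suckling liver and 0 in adult liver, while of the 5 liver markers only APOA2 had one in kidney. The strongest liver-only peak outside exons near HNF4A was in adult liver alone, at −10174 bp from start site 2, with values of 30.2 and 21.6. The 2 genes whose strongest promoter peak was most like that of HNF4A across the 8 lists, by the mean absolute difference of percentiles, were ABCC2 (1.09) and ACSM4 (3.34).

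HNF4G, on the minus strand of chromosome 4, had no promoter peak in newborn or suckling liver. Its 3 start sites lie 46900 and 59327 bp apart. Promoter 1 was called in kidney only (9.73 and 5.74, IDR 0.389), promoter 2 in adult liver only (3.33 and 80.5, IDR 0.479), and promoter 3 in no list. Neither promoter peak had an IDR of 0.05 or lower, and that of adult liver ranked at the 0.164th percentile in replicate 1 and the 77.1st in replicate 2. The gene window nevertheless held 19 ACRs, 12 of them (63.2%) in liver lists only, against 26.1% of the regions of all windows. An intron region at chr4:60621781-60622909 was called at all 3 ages and in no other tissue, with replicate values of 129 and 19.8 in newborn liver, 14.1 and 25.1 for the stronger of 2 peaks in suckling liver, and 115 and 98.1 in adult liver. All 3 of these peaks had an IDR under 0.05, and its sequence is printed above. An exon region at chr4:60636505-60638165 was called in all 8 lists, with the replicates far apart in the livers (4.87 and 33.1, 4.80 and 64.7, 6.40 and 220) and close in kidney (22.1 and 40.8).

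Adult liver stood out at HNF4G. It called 13 of the 19 regions, suckling liver 6 and newborn liver 5. Over all windows adult liver called 78245 of 201612 regions, suckling liver 95264 and newborn liver 82575. At HNF4G 9 regions were called in adult but not newborn liver against 1 in the reverse direction. Of the 6 regions called in adult liver alone, only chr4:60616616-60617074 had an IDR under 0.05 (0.0263). Kidney called 7 of the 19, of which 4 were called in no other list, as were 23425 of the 201612 regions of all windows. Adult liver also has the highest share of its peaks at an IDR of 0.05 or lower (50.4%, newborn liver 19.2%), and the part of this in the age difference was not tested. The genes closest to HNF4G in promoter pattern were DCDC2B (0.0524) and ACPP (0.0568), which likewise had a peak in kidney.

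FOXA1 and FOXA2 shared most of their regions with lung. FOXA1 had 7 ACRs, and all 7 were called in adult liver, 5 in lung, 4 each in newborn and suckling liver, 3 in kidney, 2 in heart, 1 in spleen and none in muscle. FOXA2 had 6, of which 4 were called in lung and 3 in kidney. Over all windows 30.6% of liver regions were also called in lung, compared with 71.4% for FOXA1, 66.7% for FOXA2 and 25% (2 of 8) for FOXA3. The FOXA3 share includes a region at the window edge whose liver and lung peaks themselves lay outside the window. With so few regions per gene, these shares move in large steps. The lung peak at the FOXA1 promoter had an IDR of 0.0105. The other lung peaks of FOXA1 had an IDR of 0.174 or higher, and those of FOXA2 0.316 or higher.

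At the FOXA1 promoter the strongest peak had values of 156 and 37.8 in newborn liver, 40.8 and 56 in suckling liver, 5.06 and 120 in adult liver, 14.2 and 66.1 in lung and 6.43 and 11.9 in kidney. It ranked above the 82nd percentile in both replicates of newborn liver, suckling liver and lung, and at the 8.54th in replicate 1 of adult liver. In heart (7.28 and 5.54) and spleen (5.22 and 7.95) it ranked at the 38.3rd percentile or lower. The FOXA1 interval printed above was called in adult liver alone, with values of 19.2 and 13.9 and an IDR of 0.158. A region downstream of FOXA1 (chr7:62481711-62483358) ranked above the promoter in adult liver, with 163 and 131 in adult, 39.3 and 35.0 in suckling and 113 and 23.9 in newborn liver, and it was also called in kidney, lung and heart at values of 8.85 or lower.

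FOXA2 has start sites 893 bp apart, so its promoter windows overlap, and most promoter peaks lay in both. A peak in suckling liver (8.45 and 5.97) and a peak in kidney (4.16 and 6.14) lay in the window of promoter 2 alone. A peak over both windows reached 130 and 26.7 in newborn liver and 135 and 129 in adult liver, each at the 83.6th percentile or above, while lung had 4.20 and 160 in the same region. The second region, with summits at −1327 bp in suckling liver and kidney, was called in all lists except muscle, with 21.8 and 30.2 in suckling liver, 10.1 and 14.1 in kidney and 5.90 and 16.1 in lung. FOXA2 alone of the 7 genes had fewer peaks in adult liver (4) than in both newborn (8) and suckling liver (9). Counted as ACRs, which join neighbouring peaks, adult liver had 4 and newborn and suckling liver 6 each. The 2 regions not called in adult liver had an IDR of 0.234 or higher. A region over an intron and exon at chr17:29999388-29999719 was called at all 3 liver ages and in no other tissue, at values of 16.5 or lower and an IDR of 0.263 or higher. In the pattern of its promoter over the lists FOXA2 was closest to LOC100515741 (4.83) and to NR5A2 (6.46), which encodes a nuclear receptor of liver.

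FOXA3 combined a promoter open in every tissue with liver-only regions behind the gene. Its promoter peak was at the 92.5th percentile or above in both replicates of the 3 livers (398 and 62.7, 50.9 and 89.9, 268 and 275), of kidney (40.8 and 74.2), heart (48.8 and 73.8) and muscle (61.2 and 114). Replicates disagreed in lung (5.16 and 181) and spleen (11.8 and 362). The summit lay between −711 and −656 bp of the FOXA3 start site, in the space between FOXA3 and the gene SYMPK on the other strand, and the same peak is the strongest promoter peak of SYMPK in all 8 lists. The FOXA3 promoter pattern therefore cannot be told apart from that of its neighbour.

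Of the 9 ACRs of FOXA3, 3 were called at all 3 liver ages and in no other list. The one with its summit at 11263 bp from the start site in newborn liver (chr6:52192097-52192530) had 78.8 and 55.4 in newborn, 43.7 and 67.9 in suckling and 126 and 130 in adult liver. The one at the 3′ end of the gene (chr6:52188728-52189309) had 151 and 23.4, 25.4 and 23.8, and 98.9 and 74.8. Both had an IDR under 0.05 at all 3 ages. The most distal one, with a newborn summit at 15508 bp, reached an IDR of 0.0174 in adult liver only, with 21.2 and 23.7. Next to it, 2 regions were called in the livers and in kidney, where their values were 3.70 and 2.92, and 3.68 and 9.91. The next gene, IRF2BP1, also reaches into the window, and the peaks do not say which gene a region belongs to. FOXA3 had the largest share of reproducible peaks of the 7 genes, with 65.5% of its 29 peaks at an IDR of 0.05 or lower.

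ONECUT1 had the most regions called in liver lists only. Its window on chr1:118903400-118968140 held 20 ACRs, and 14 were called in liver only, 10 of them at all 3 ages. Over the windows of all PCGs 26.1% of regions were called in liver lists only and 4.78% at all 3 liver ages only. At least as many regions of the latter kind were found in 31 PCGs (0.158%), a count that does not allow for the length of the window. The promoter itself was called in all 8 lists, with 130 and 10.2 in newborn liver, 11.1 and 6.18 in suckling liver, 94.2 and 70.8 in adult liver, 14.3 and 24.9 in kidney, 6.54 and 28.0 in lung, 9.51 and 5.56 in heart, 6.60 and 13.6 in muscle and 24.3 and 13.4 in spleen. Its percentile did not separate the livers, since kidney (74.4th and 80.4th) ranked above suckling liver (66.1st and 27.0th).

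**Figure D4:**
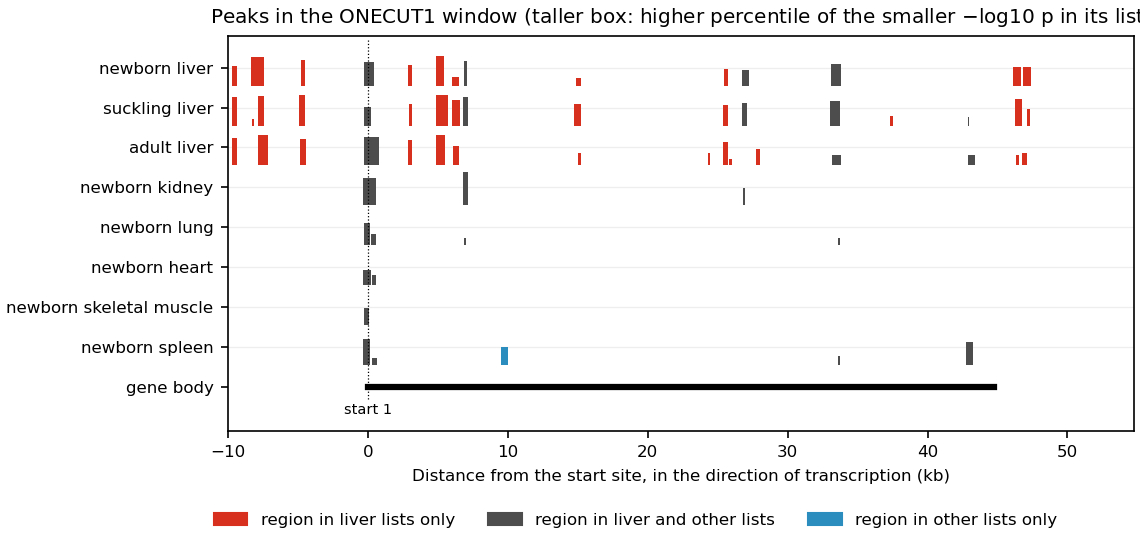
Peaks in the ONECUT1 window by distance from the start site in kb, with 1 row for each list and taller boxes for a higher percentile. All 8 lists have a box at the start site, and the red boxes of regions in liver lists only line up over the 3 liver rows at 10 positions.

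Of the 10 regions, 3 lay upstream of the promoter, 3 in introns near the start site, 2 over exons and 2 downstream of the gene. The strongest, upstream of the promoter (newborn summit at −7650 bp, chr1:118905041-118906264), had 152 and 18.9 in newborn liver, 18.7 and 24.7 for the stronger of 2 peaks in suckling liver and 157 and 124 in adult liver. An intron region (newborn summit at 5159 bp, chr1:118918235-118919140) had 157 and 25.2, 24.0 and 35.3, and 174 and 110. These were the regions of the 10 with an IDR under 0.05 at all 3 ages. The 2 regions downstream of the gene and an exon region (newborn summit at 15024 bp) reached an IDR of 0.05 at no age, with values of 12.2 or lower. Kidney had a strong region here in the intron at chr1:118920223-118920575 (52.2 and 70.8, at the 96.7th and 96.0th percentiles), which was also called in newborn liver (11.3 and 17.9) and suckling liver (16.9 and 22.2) and weakly in lung, but not in adult liver.

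PROX1 had the most regions of the 7 genes, and few of them were called in kidney or spleen. The window on chromosome 9 held 25 ACRs, of which 23 were called in liver, 13 in liver only and 3 at all 3 ages only. Of the 23, 7 were also called in heart (30.4%, against 28.1% over all windows), 6 in lung (26.1%, against 30.6%) and 5 in muscle (21.7%, against 21.1%), so these shares were near those of all genes, while 4 were called in kidney (17.4%, against 43.3%) and 1 in spleen (4.35%, against 33.7%). The lung count includes chr9:129516684-129518110 at the window edge, where the lung peak itself lay outside the window. LOC106507881 also reaches into the PROX1 window, and ATAC-seq cannot assign a region to one or the other.

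The PROX1 start sites form 3 promoters. Promoter 2, which holds 11 of the 13 annotated start sites, had a peak in all 8 lists, and the values were 58.9 and 16 in newborn liver, 20.3 and 26.7 in suckling liver, 56.6 and 57.0 in adult liver, 62.6 and 72.9 in kidney, 31.5 and 83.1 in lung, 34.0 and 25.0 in heart, 61.7 and 70.4 in muscle and 52.1 and 81.6 in spleen. In the percentile of the smaller value the order was kidney (98.0), muscle (94.4), lung (92.4), spleen (92.1), heart (88.2), suckling liver (84.3), adult liver (76.5) and newborn liver (75.6). Heart and suckling liver, lung and spleen, and the adult and newborn livers are neighbours in this order that lie closer than the replicates of either, and heart replicate 2 (81.3) was below suckling liver replicate 1 (82.5). Promoter 1 was called in the livers, lung, heart and muscle, and promoter 3 in adult liver, lung, heart and muscle, at an IDR of 0.0832 or higher in all but adult liver, where promoter 1 had 42.5 and 36.9 and an IDR of 0.00676.

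Away from the promoters, a region upstream of the gene (newborn summit at −7938 bp) had 139 and 13.6 in newborn, 15.8 and 24.3 in suckling and 145 and 102 in adult liver, and was also called in kidney, heart and muscle. The intron region at chr9:129546213-129546904 was called in liver only, with 133 and 10.8, 5.92 and 10.4, and 120 and 63.2, and passed an IDR of 0.05 in adult liver alone. A heart region in the intron at chr9:129553803-129554429 (37.0 and 27.0, IDR 0.0115) was shared with newborn (32.4 and 16.3) and suckling liver (10.6 and 9.75) and not with adult liver. A peak in intron sequence at chr9:129539168-129539771 was called in heart and muscle only. The 5 endothelial and lymphatic markers had promoter peaks at 5, 5 and 5 genes in the 3 livers, 5 in lung, heart and spleen, 4 in kidney and 2 in muscle, and the part of such cells in the PROX1 regions was not tested.

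Taking the 108 regions of the 7 genes as a whole, 53 (49.1%) were called in liver lists only, compared with 26.1% of the 201612 regions in the windows of all PCGs, and 19 (17.6%) were called at all 3 liver ages only, compared with 4.78%. At least 1 of the latter was found at 6 of the 7 genes and at 32% of all PCGs, whose windows differ in length. Another 43 were called in liver and at least 1 other tissue, 12 in other tissues only, and 6 in all 8 lists (5.56%, against 8.14%). The 43 and the 6 include the region at the edge of the FOXA3 window, of which only the spleen peak reached inside. None of the 19 lay in a promoter, whereas 12 of the 43 shared regions did. The same shares over all gene windows were not computed. The study reports that tissue-specific peaks in general lay less often in promoters than all peaks did. Of the 53, 17 were called in adult liver alone, 7 in suckling liver alone and 2 in newborn liver alone. Other tissues were sampled in newborns only. Tissue and age therefore cannot be told apart for regions called in older livers only, and the part of age was not tested. The 19 were called in newborn liver as well and in no other newborn tissue. The 19 comprised 10 of ONECUT1, 3 each of FOXA3 and PROX1, and 1 each of HNF4A, HNF4G and FOXA2. They were supported by 59 peaks, of which 26 (44.1%) had an IDR of 0.05 or lower, against 8 of 43 peaks (18.6%) in regions called at 1 or 2 liver ages only and 89 of 226 (39.4%) in regions shared with other tissues.

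**Figure D5:**
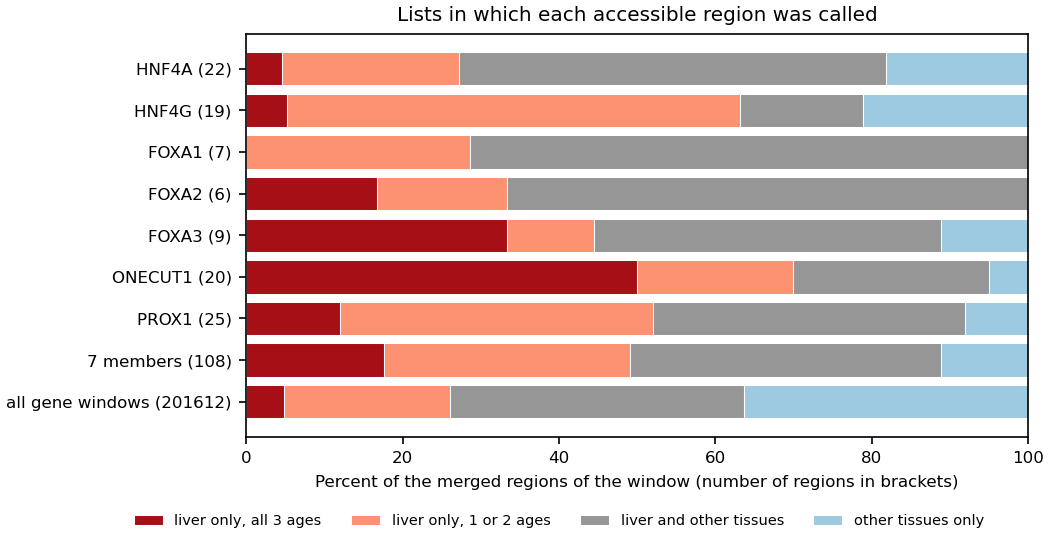
Percent of the merged regions in each gene window by the lists that called them, with the number of regions in brackets. ONECUT1 has the largest dark red part (10 of 20 regions at all 3 liver ages only) and FOXA1 none, against 4.78% over all gene windows.

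Across the liver ages, more regions around these genes were called in adult than in newborn liver. In adult but not newborn liver 25 regions were called, and 8 in newborn but not adult liver. Over the windows of all PCGs the corresponding numbers were 21944 and 26274. HNF4G gave 9 of the 25, PROX1 6, ONECUT1 4, HNF4A and FOXA1 3 each, and FOXA2 and FOXA3 none. In the newborn liver list replicate 1 had the higher value in 60 of the 67 peaks of these genes, and the part of this imbalance in the comparison of ages was not tested.

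Other regulators and target genes were counted by the same measures. Of 20 further hepatic regulators, 18, 18 and 19 had a promoter peak in newborn, suckling and adult liver, 18 in kidney, 16 in lung, 14 in heart and 11 each in muscle and spleen, where 61.4% (muscle) to 75.1% (kidney) of all PCGs had one. The peak share of 6 of the 20 was higher in every liver list than in every other list, as for 7.1% of all PCGs. Of 15 genes that these factors are known to act on, among them plasma protein and apolipoprotein genes, 14, 15 and 15 had a promoter peak in the livers, 8 in kidney, 5 in lung, 3 in heart, 3 in muscle and 5 in spleen. The peak share of 11 of the 15 was higher in every liver list than in every other list, beside the same 7.1%. The median difference between liver and other lists was 1.72 peaks per 100000 for the 20 regulators and 4.33 for the 15 target genes, beside 4.58 for the 7 genes. Window length is not allowed for in these medians.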

How the data were processed

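The deposited data were 8 lists of consensus peaks, 1 for each group of 2 ATAC-seq libraries. According to the study, the authors mapped reads to Sscrofa11.1 with Bowtie2, filtered out mitochondrial and poorly mapped alignments and duplicates with SAMtools (version 1.3.1 in the submitters' processing notes), called peaks in each replicate with MACS2, and matched replicates by IDR at default settings. Neither a transposase offset nor a blacklist of artefact-prone regions is mentioned, which could change the intervals listed. The deposited −log10 p values are those of replicate 1, replicate 2 and the lower of both. The deposited score rescales the IDR, with 540 equal to 0.05. The lists were not filtered on IDR. Values of −log10 p depend on depth, which the lists do not give, so percentiles within a list were used.

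Groups were taken from the labels. Genes and start sites came from the RefSeq annotation of Sscrofa11.1 (19560 PCGs and 45998 promoters of mRNA transcripts), start sites within 500 bp formed 1 promoter, and overlaps of 1 bp counted. Positions are counted from 1. Peak counts in a gene window were divided by the peaks of the list and compared between 3 liver and 5 other lists by an exact two-sided permutation test (56 splits) for each of 18555 PCGs, with Benjamini-Hochberg adjustment. The test and the letter search were tested on simulated data. Python 3.11.15, numpy 2.4.6, pandas 2.3.3, scipy 1.17.1 and matplotlib 3.10.9 were used.

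All 7 genes were named, with their promoter peaks and strongest liver-only peaks, and, for each, the 2 PCGs with the smallest mean absolute difference of promoter percentiles over 8 lists (0 where none was called). The genes, marker lists, target genes and tests were chosen with earlier results of these data known. PAX8, MYH6 and KRT7 had no match in the annotation used. Alternatives were an IDR limit, equal numbers of peaks, ranking by either replicate, summits in place of overlap, and other windows and transcripts.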

Additional observations from a re-analysis of the deposited data

How the results depend on the processing

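The promoter counts, the genes set apart, the share differences and the counts of liver-only regions were recomputed with other settings, and the other values of the report were not. At an IDR of 0.05 or lower, promoter peaks were called at 3 of the 7 genes in newborn liver, 2 in lung, 2 in heart and 1 in spleen. Spleen had 3 with an equal number of top peaks in each list (57126) and 3 with the peaks ranked by either replicate alone. The other promoter counts stayed within 1.5 times of those reported. The share of all PCGs with a promoter peak was not recomputed under these settings.

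ONECUT1 had a higher peak share in every liver list than in every other list under every setting run, and FOXA3 under every setting except the window of 50 kb on either side. HNF4A was set apart as reported, with summits in place of overlap, with no flank, and without the newborn liver and newborn lung lists. It was not set apart at an IDR of 0.05 or lower, with equal numbers of peaks, when ranked by either replicate alone, or with 50 kb on either side. Promoter settings do not enter this measure. The number of such genes was 5 with equal numbers of peaks, 1 with 50 kb on either side, and 5 without the newborn liver and newborn lung lists, an alternative chosen after seeing the data because the replicates of these lists differed most. Over all PCGs 5.25%, 7.69% and 11.9% were set apart under these 3 settings. Ranked by a single replicate, 4 genes were set apart with either. Of all PCGs, 4.88% were set apart when ranked by replicate 2 and 6.19% when ranked by replicate 1.

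Regions called in liver lists only numbered 35 with equal numbers of peaks and 89 with 50 kb on either side, and from 32 to 40 when ranked by a single replicate. Regions at all 3 liver ages only numbered 11 at an IDR of 0.05 or lower, 11 with equal numbers of peaks, 11 with no flank, 30 with 50 kb on either side, and 10 to 11 ranked by a single replicate. Without the newborn liver and lung lists, 59 regions were in liver only and 26 in both remaining livers only. With those lists left out, every liver list is from older pigs than the other lists, so tissue and age cannot be told apart. The liver minus other difference of every gene was positive under all 56 combinations of gene and setting, with adjusted p from 0.307 to 0.877 by the exact permutation test. The cause of these shifts was not tested beyond what the settings themselves remove. For the region counts, totals and the shares over all gene windows were not recomputed under any alternative setting.

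No paired analysis was possible because each list pools its 2 replicates, so that no replicate has a value where no consensus peak was called. The small number of lists limits the exact test to p = 0.0357, and depth is unknown from the lists.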
